A study of Homo sapiens with 4 samples.

Results

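A group of 10 transcription factor genes of the cerebellar granule cell lineage were followed in Daoy cells, a human medulloblastoma line, with and without an shRNA against PELP1. The members were ATOH1, ZIC1, ZIC2, PAX6, OTX2, BARHL1, NEUROD1, MEIS1, MEIS2 and EN2, taken by gene symbol from the deposited count tables, so that 10 of 23228 gene rows were used. Of these, 7 were expressed at 1 CPM or more in every library, while ATOH1, BARHL1 and NEUROD1 had at most 6 counts in any library. CPM are counts per 1000000 counts in genes, with every library size scaled by its TMM factor, here and below. With the PELP1 shRNA, PAX6, OTX2, EN2 and ZIC2 were higher, by 1.45-fold, 1.40-fold, 1.33-fold and 1.20-fold, and MEIS2 was lower, at 79.3% of control. ZIC1 and MEIS1 did not pass the test. No member passed a test against a change of 1.5-fold.

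RNA was sequenced in 4 libraries. In 2, the cells had been transduced with lentivirus and stably expressed a control shRNA, and in the other 2 they stably expressed the PELP1 shRNA in the same way. All were cultured in serum-supplemented DMEM with no further treatment named. The labels do not say how many shRNA sequences were used, whether the transduced cells were pools or single clones, or whether the duplicates came from separate cultures. So the p-values speak only of the spread among these 4 libraries, and that spread may be technical.

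Granule neurons arise from progenitors of the rhombic lip at the edge of the embryonic hindbrain. ATOH1, a basic helix-loop-helix (bHLH) activator, sets up these progenitors and keeps them dividing under Sonic hedgehog. The ZIC zinc finger proteins and PAX6, a paired-box and homeodomain factor, are present in the progenitors and in young granule cells, and BARHL1 and the bHLH factor NEUROD1 act as the cells leave the cycle and differentiate. MEIS1 and MEIS2 are homeodomain proteins of the TALE class that bind DNA together with PBX and often HOX proteins. The homeobox genes EN2 and OTX2 pattern the region from which the cerebellum forms, and OTX2 is an oncogene of some medulloblastomas. ATOH1 is a marker of the Sonic hedgehog (SHH) subgroup of the tumour.

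PELP1, the target of the shRNA and a coregulator of nuclear receptors, had 3932 and 4766 counts under the control shRNA and 1677 and 1370 under its own shRNA, a log2 fold change of −1.75 ± 0.05 (SE, FDR = 1.54e-33). FDR here is the Benjamini-Hochberg adjusted p of edgeR's quasi-likelihood test, and a gene was called when it was under 0.05. Libraries held 24052542 to 29221640 counts in genes. Some glial genes differed by replicate number within both groups. The astrocyte gene GFAP stood at 37.2 and 11.8 CPM in control replicates 1 and 2. In PELP1 shRNA replicates 1 and 2 it stood at 27.8 and 10.4 CPM. S100B, AQP4 and FABP7 were also higher in replicate 1 of both groups. MBP did not follow in the control libraries, at 2.31 and 2.64 CPM in replicates 1 and 2, against 9.48 and 5.51 CPM with the PELP1 shRNA. Of the 7 tested members, 5 (PAX6, OTX2, EN2, ZIC1 and MEIS2) were lower in replicate 1 than in replicate 2 of both groups. The share of all tested genes with this pattern was not computed. Over 11325 genes, deviations of same-numbered libraries from their group means correlated at −0.158. Within either replicate number, PAX6, OTX2 and EN2 were higher and MEIS2 and ZIC1 lower with the PELP1 shRNA. The part of the glial difference in any other result was not tested, and in bulk RNA fewer cells of a type cannot be told apart from less RNA per cell.

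The expressed members lay near or below the middle of the genes tested. Levels of different genes are compared here as TMM-scaled CPM per kilobase of the canonical transcript, where TMM scaling brings the libraries to a common effective size. MEIS2 was the highest in the control libraries, at 9.10 and 9.18 CPM per kb, above 53.5% of 14119 tested genes with a known length, whose median was 7.82. EN2 stood at 5.75 and 6.15, PAX6 at 5.55 and 6.15 and ZIC2 at 5.79 and 5.40 CPM per kb, and the ranges of neighbours among these 3 overlapped. ZIC1 followed at 3.84 and 4.17, OTX2 at 1.62 and 1.72 and MEIS1 at 1.45 and 1.22 CPM per kb, each below the one before it in both libraries. MEIS1 was above 20.9% of tested genes.

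With the PELP1 shRNA the order changed at the top. PAX6 was highest, at 8.24 and 8.74 CPM per kb, then EN2 at 7.64 and 8.17, and MEIS2 came next at 7.02 and 7.48, overlapping ZIC2 at 7.04 and 6.34. The place of PAX6 depends on the length used. Its canonical transcript is 2743 bases and the union of its annotated exons 20639, and over that union its control level was 0.777 CPM per kb, against 5.95 for EN2, 5.04 for ZIC2 and 4.21 for MEIS2.

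**Figure D1:**
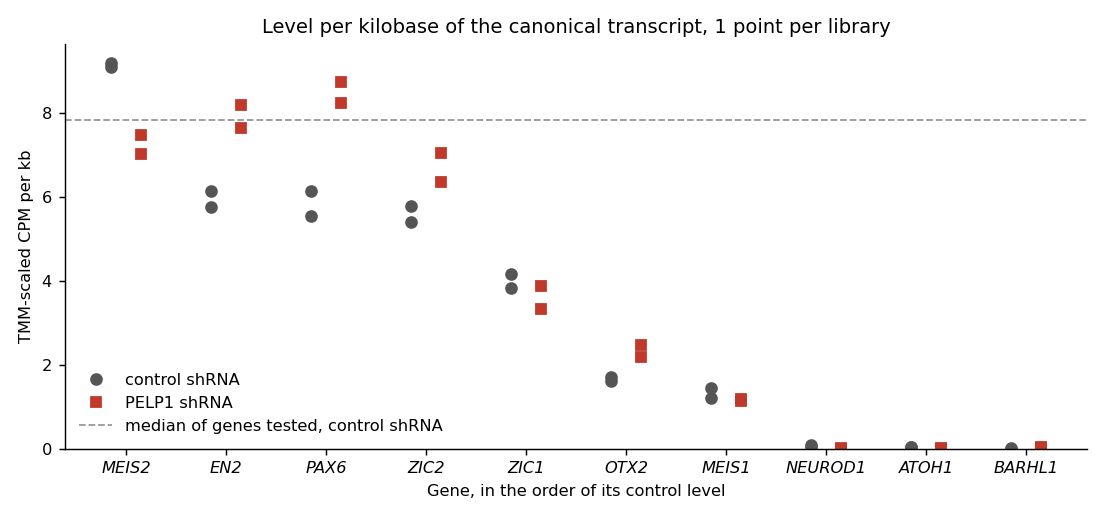
TMM-scaled CPM per kilobase of the canonical transcript (y axis, linear) for the 10 genes (x axis, in the order of their control level), with 1 point per library and the median control level of the tested genes as a dashed line. MEIS2 led in the control libraries (circles), PAX6 in the PELP1 shRNA libraries (squares), and NEUROD1, ATOH1 and BARHL1 lay close to 0.

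PAX6, which directs eye and brain development and is kept on in granule cells, rose from 356 and 434 counts to 682 and 661. As TMM-scaled CPM these were 15.23 and 16.86 against 22.59 and 23.97, and the groups did not overlap. The log2 fold change of 0.53 ± 0.09 (SE, FDR = 1.96e-07) was the largest among the members. PAX6 occupies 31806327 to 31839509 of chromosome 11 (hg19, minus strand) and shares 5432 exonic bases with antisense genes, among them ELP4. Of the 50-base words in its canonical transcript, 35.2% also occur in ELP4 transcripts, and whether the counting used strand is not stated. ELP4, a subunit of the Elongator complex, stood at 16.9 and 17.9 CPM (means of 2 libraries) and did not pass (0.08 ± 0.09, SE, FDR = 0.426).

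OTX2 had 114 and 133 control counts against 199 and 206. Its level was 4.88 and 5.17 CPM with the control shRNA and 6.59 and 7.47 CPM with the PELP1 shRNA, again without overlap, and its log2 fold change was 0.48 ± 0.14 (SE, FDR = 0.00192). In DESeq2 the call was lost (adjusted p = 0.0708). The gene occupies 57266623 to 57283411 of chromosome 14 (hg19, minus strand), where no other annotated gene overlaps its exons.

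EN2, an engrailed homeobox repressor needed for folding of the cerebellum, had 456 and 537 counts with the control shRNA and 783 and 765 with the PELP1 shRNA. Its level rose from 19.5 and 20.9 CPM to 25.9 and 27.8 CPM, a log2 fold change of 0.41 ± 0.08 (SE, FDR = 1.01e-05). The gene has 2 exon blocks on the plus strand of chromosome 7 (hg19, 155250824 to 155257526) and no annotated exonic overlap. Its paralogue EN1 stood at 8.94 ± 0.06 and 9.64 ± 0.37 CPM (SD, n = 2) and did not pass (0.11 ± 0.11, SE, FDR = 0.419).

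The ZIC genes lie in divergent pairs, ZIC1 with ZIC4 on chromosome 3 and ZIC2 with ZIC5 on chromosome 13. In hg19, ZIC1 spans 147111209 to 147228080 and ZIC2 100634038 to 100639019, both on the plus strand. ZIC2 had 401 and 412 counts against 630 and 518, or 17.15 and 16.01 CPM against 20.87 and 18.79 CPM (log2 fold change 0.26 ± 0.09, SE, FDR = 0.00877). The groups did not overlap, but PELP1 shRNA replicate 1 stood above replicate 2. The call was lost without that library (0.183, adjusted p = 0.158), without control replicate 2 (0.211, adjusted p = 0.0929) and in DESeq2 (adjusted p = 0.108). ZIC5, its neighbour at a gap of 10 kb, had 358 and 369 counts against 550 and 523 and rose by a similar amount (0.33 ± 0.09, SE, FDR = 0.00132).

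ZIC1 had 472 and 564 counts with the control shRNA and 530 and 563 with the PELP1 shRNA. At 20.2 and 21.9 CPM against 17.6 and 20.4 CPM, its groups overlapped (−0.15 ± 0.09, SE, FDR = 0.122). Without PELP1 shRNA replicate 2 it was called lower (−0.264, adjusted p = 0.0316). ZIC4 did not pass (0.35 ± 0.24, SE, FDR = 0.223), from under 2 CPM. No 50-base word of the canonical ZIC1 or ZIC2 transcript occurs in a transcript of another gene, so reads of these canonical transcripts can be told apart. Over all annotated exons, ZIC1 shares 176 bases with ZIC4 on the opposite strand.

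MEIS2 was the only member called lower. Its raw counts were 1167 and 1296 with the control shRNA and 1163 and 1131 with the PELP1 shRNA, whose libraries were the deeper ones. Scaled, this was 49.9 and 50.4 CPM against 38.5 and 41.0 CPM, with no overlap and a log2 fold change of −0.33 ± 0.06 (SE, FDR = 3.15e-06). MEIS2 spans chromosome 15 from 37181405 to 37393500 (hg19, minus strand), and 431 of its exonic bases overlap an antisense transcript. MEIS1, on the plus strand of chromosome 2 (66660584 to 66801001), had 155 and 143 counts against 158 and 148, or 6.63 and 5.56 CPM against 5.23 and 5.37 CPM. Its groups did not overlap, by a margin smaller than the spread of the control libraries, and it did not pass (−0.20 ± 0.14, SE, FDR = 0.226). The annotated exons of MEIS1 share 1456 bases with the antisense genes MEIS1-AS3 and MEIS1-AS2. Another gene of the family, MEIS3, had 12 and 17 counts against 28 and 23 and did not pass (0.58 ± 0.37, SE, FDR = 0.173).

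**Figure D2:**
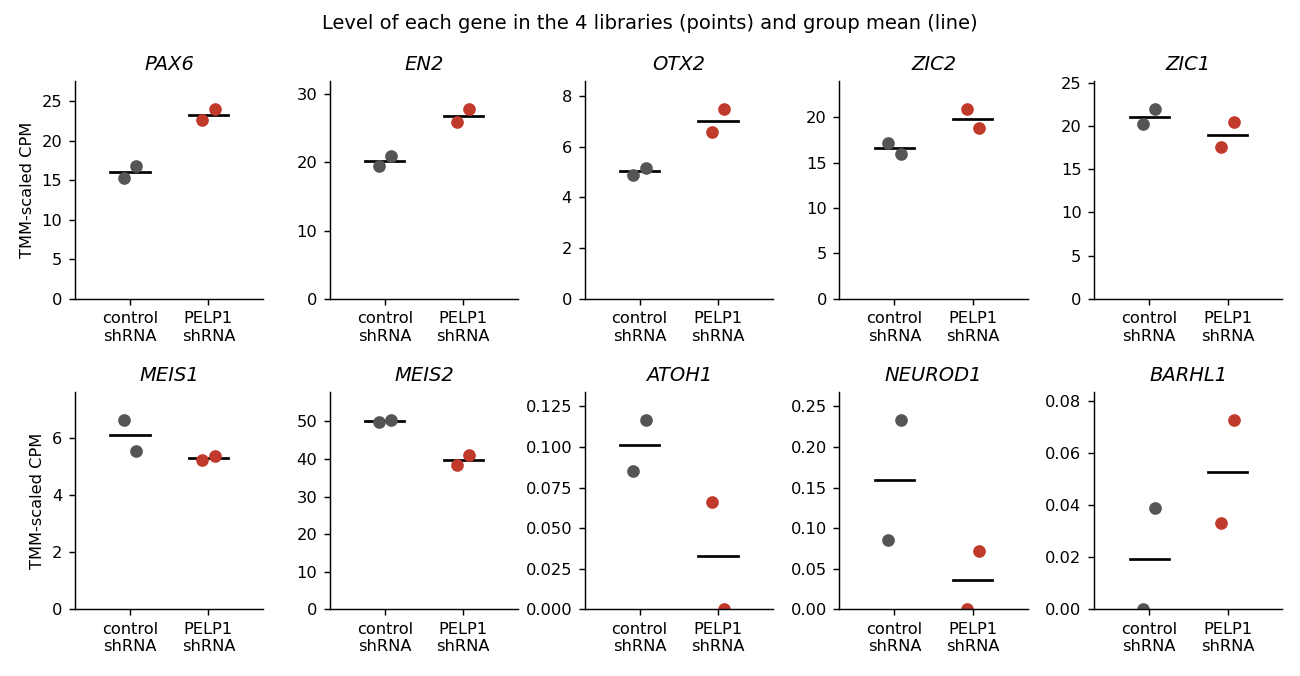
TMM-scaled CPM (y axes, linear from 0, each panel on its own scale) of the 10 genes in the 2 control shRNA and 2 PELP1 shRNA libraries (points), with the group mean as a line. PAX6, EN2, OTX2 and ZIC2 were higher and MEIS2 lower in both PELP1 shRNA libraries than in both control libraries, and the panels of ATOH1, NEUROD1 and BARHL1 rest on 0 to 6 counts per library.

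ATOH1, BARHL1 and NEUROD1 did not reach the count filter and have no test. In hg19 they lie on chromosome 4 (94749904 to 94752115), chromosome 9 (135457993 to 135465639) and chromosome 2 (182533022 to 182545554). ATOH1 had 2 and 3 control counts and 2 and 0 with the PELP1 shRNA, which after scaling is a ratio of 0.34 (95% exact counting interval 0.0324 to 2.08). NEUROD1 had 2 and 6 counts against 0 and 2 (ratio 0.213, interval 0.022 to 1.07), and BARHL1 0 and 1 counts against 1 and 2 (ratio 2.55, interval 0.205 to 134). The intervals cover counting error only, and each includes 1, so no difference was detectable at this depth. In these libraries 3 counts correspond to 0.0994 to 0.128 CPM. The share of tested genes that lay below their control level per kilobase was 0.552% for ATOH1, 0.992% for NEUROD1 and 0.0425% for BARHL1. The other NEUROD genes and the neurogenins did not reach the filter either. NEUROD2, NEUROD4 and NEUROD6 had at most 2 counts in any library, NEUROG2 had 0 and 1 against 1 and 6, and NEUROG1 and NEUROG3 had 0 in all 4.

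Counted together, 4 of the 7 tested members were called higher and 1 lower at an FDR of 0.05. Over all 14972 genes tested, 58.1% were called, 28.6% higher and 29.5% lower, so a share of 5 in 7 (71.4%) is close to the background. The median log2 fold change of the 7 was 0.26, against 0.00 over all genes (0.00222), and the median absolute change was 0.33 against 0.26. The 2 groups did not overlap for 6 of the 7, as for 77.7% of all tested genes. Tested against a 1.5-fold change with glmTreat at an FDR of 0.05, 9.63% of all genes passed and 0 members. With only 7 tested members, 0 is not far from that share. At an unadjusted p of 0.05 from the same test, 0 members passed too, and the share of all genes was not computed. With an assumed biological variation of 20% in place of the 2.99% estimated from the duplicates, 0 members were called, and at 10% PAX6, OTX2 and EN2 were called and MEIS2 was not (adjusted p = 0.0794).

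Scaling did not turn the direction of a tested member. With library size alone, 63.2% of the called genes were higher in place of 49.1%, and the log2 fold changes of the 7 members moved up, to 0.351 for ZIC2 and −0.0626 for ZIC1. The calls of all 7 were the same under TMM, upper-quartile factors and library size alone.

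**Figure D3:**
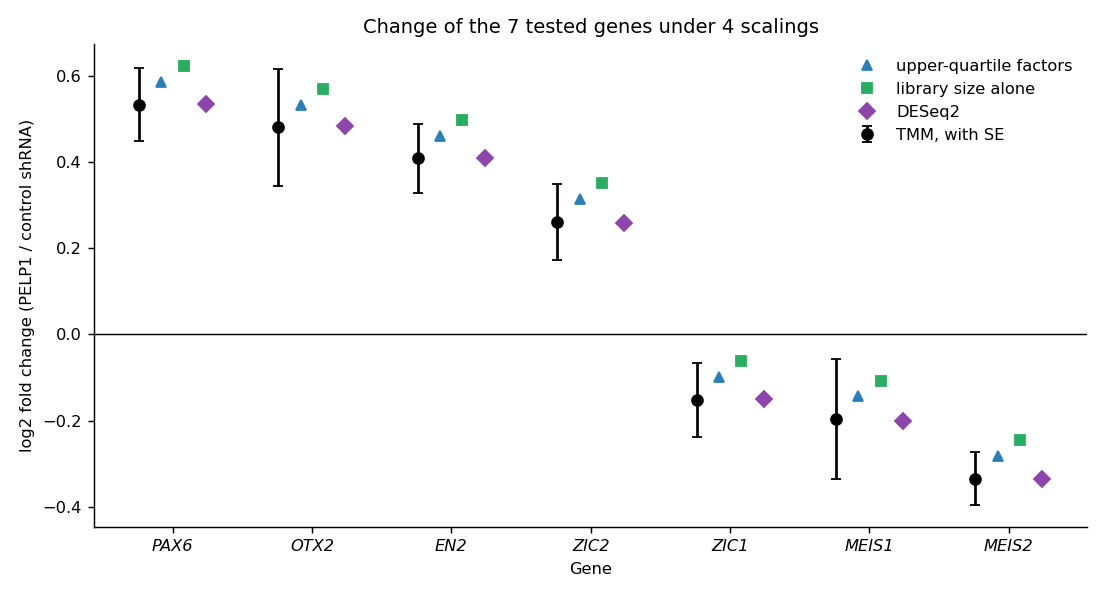
Log2 fold change of PELP1 shRNA over control shRNA (y axis) for the 7 tested genes (x axis) with TMM scaling and its SE (circles), upper-quartile factors (triangles), library size alone (squares) and DESeq2 (diamonds). PAX6, OTX2, EN2 and ZIC2 stayed above 0 and ZIC1, MEIS1 and MEIS2 below 0 in all 4.

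Ratios of counts within a library do not depend on scaling. The ratio of ZIC2 to ZIC1 was 0.85 and 0.73 with the control shRNA against 1.19 and 0.92 with the PELP1 shRNA, without overlap. The ratio of MEIS2 to MEIS1 was 7.53 and 9.06 against 7.36 and 7.64, with overlap. PAX6 and MEIS2, a pair picked after their values were seen, moved furthest apart of the 6 pairs computed, from 0.305 and 0.335 counts of PAX6 per count of MEIS2 to 0.586 and 0.584. With 2 libraries against 2, an exact two-sided permutation test cannot give a p below 0.333.

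For the members that passed, the 250 bases before the outermost start listed in the RefSeq promoter table are given, 5′ to 3′ on the gene's strand. They are in GRCh38.p14, a later build than the hg19 of the counts. The listed starts were not matched to the hg19 gene spans given above, so a window may lie inside such a span. Capitals mark GC boxes, the letters GGGCGG on either strand. Matches may overlap each other.

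PAX6, chr11:31817962-31818211, minus strand: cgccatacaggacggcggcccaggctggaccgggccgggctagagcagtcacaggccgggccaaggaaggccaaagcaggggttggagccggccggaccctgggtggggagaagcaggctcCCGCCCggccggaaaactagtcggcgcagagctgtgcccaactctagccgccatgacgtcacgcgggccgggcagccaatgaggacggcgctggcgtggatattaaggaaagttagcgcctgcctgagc

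OTX2, chr14:56810480-56810729, minus strand: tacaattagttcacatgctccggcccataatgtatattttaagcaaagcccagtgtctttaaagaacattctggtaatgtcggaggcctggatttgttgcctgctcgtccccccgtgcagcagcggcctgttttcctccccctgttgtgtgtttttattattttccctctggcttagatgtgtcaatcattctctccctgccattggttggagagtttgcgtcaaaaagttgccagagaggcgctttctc

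EN2, chr7:155457879-155458128, plus strand: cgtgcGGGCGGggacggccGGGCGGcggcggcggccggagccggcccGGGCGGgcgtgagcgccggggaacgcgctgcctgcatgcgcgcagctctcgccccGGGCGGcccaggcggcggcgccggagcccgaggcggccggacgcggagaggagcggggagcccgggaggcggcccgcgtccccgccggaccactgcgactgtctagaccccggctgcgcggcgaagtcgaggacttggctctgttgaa

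ZIC2, chr13:99981534-99981783, plus strand: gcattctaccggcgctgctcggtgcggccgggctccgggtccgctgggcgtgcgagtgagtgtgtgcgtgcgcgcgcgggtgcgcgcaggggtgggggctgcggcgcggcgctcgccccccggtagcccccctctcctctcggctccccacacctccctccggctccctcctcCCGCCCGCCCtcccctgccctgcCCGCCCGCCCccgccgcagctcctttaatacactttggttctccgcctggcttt

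MEIS2, chr15:37099107-37099356, minus strand: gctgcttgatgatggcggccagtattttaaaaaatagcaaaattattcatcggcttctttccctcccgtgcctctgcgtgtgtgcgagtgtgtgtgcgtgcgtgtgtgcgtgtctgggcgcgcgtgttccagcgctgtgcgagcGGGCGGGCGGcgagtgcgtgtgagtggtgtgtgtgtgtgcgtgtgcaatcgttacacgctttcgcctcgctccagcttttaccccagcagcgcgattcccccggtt

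The 4 windows of genes that rose differ in make-up. That of EN2 has 81.2% G and C, with 45 CpG dinucleotides and 4 GC boxes, and that of OTX2 has 47.2%, 7 CpG dinucleotides and 0 GC boxes. The median was 58% over 35116 windows of 250 bases. Those windows take every start listed for a gene, while each member enters only with its outermost start, so the 2 sets are not alike. ZIC2 has 75.6% and 4 GC boxes, PAX6 68.4% and 1, and MEIS2, which fell, 58.8% and 2. RefSeq lists 9 starts for PAX6 and 2 each for OTX2 and MEIS2, and which of them Daoy cells use cannot be read from counts per gene. Windows were found for all 10 members, and 6 of 10 hold a GC box, as do 42.6% of all windows. The E-box, CANNTG on either strand, bound by bHLH factors such as ATOH1 and NEUROD1, occurs in 4 of 10, ATOH1, ZIC1, OTX2 and BARHL1, and in 61.8% of all. The MEIS core TGACAG (13% of all windows), the OTX core TAATCC (5.62%), the homeodomain core TAATTA (4.35%) and the κB site of NF-κB (9.96%), each on either strand, occur in 0 of 10. These are matches of letters in a short window, not binding sites.

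The nearest tested genes on either side moved in differing ways. Beside EN2, CNPY1, a gene of FGF signalling at the midbrain-hindbrain boundary, lay 9.38 kb away and stood at 0.54 ± 0.19 (SE, FDR = 0.0127), from 2.38 to 3.46 CPM. DESeq2 did not call it (adjusted p = 0.182), nor did edgeR when replicate 1 of either group was left out (adjusted p = 0.213 for PELP1 shRNA, 0.0664 for control). On the other side of EN2, INSIG1, a sterol-regulated gene 149 kb away, rose 2.87-fold. Next to ZIC2, ZIC5 and the propionyl-CoA carboxylase subunit gene PCCA (102 kb, 0.93 ± 0.12, SE, FDR = 1.97e-08) both rose. PAX6 and OTX2 each had a neighbour that did not pass, ELP4 and C14orf101 (−0.05 ± 0.08, SE, FDR = 0.647), and another that rose slightly, RCN1 (0.20 ± 0.05, SE) and EXOC5 (0.18 ± 0.04, SE). The pseudogene CSNK1A1P1, 70.7 kb from MEIS2, was also lower (−0.27 ± 0.10, SE, FDR = 0.0217), and SPRED1 on the other side did not pass (−0.10 ± 0.06, SE, FDR = 0.172).

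**Figure D4:**
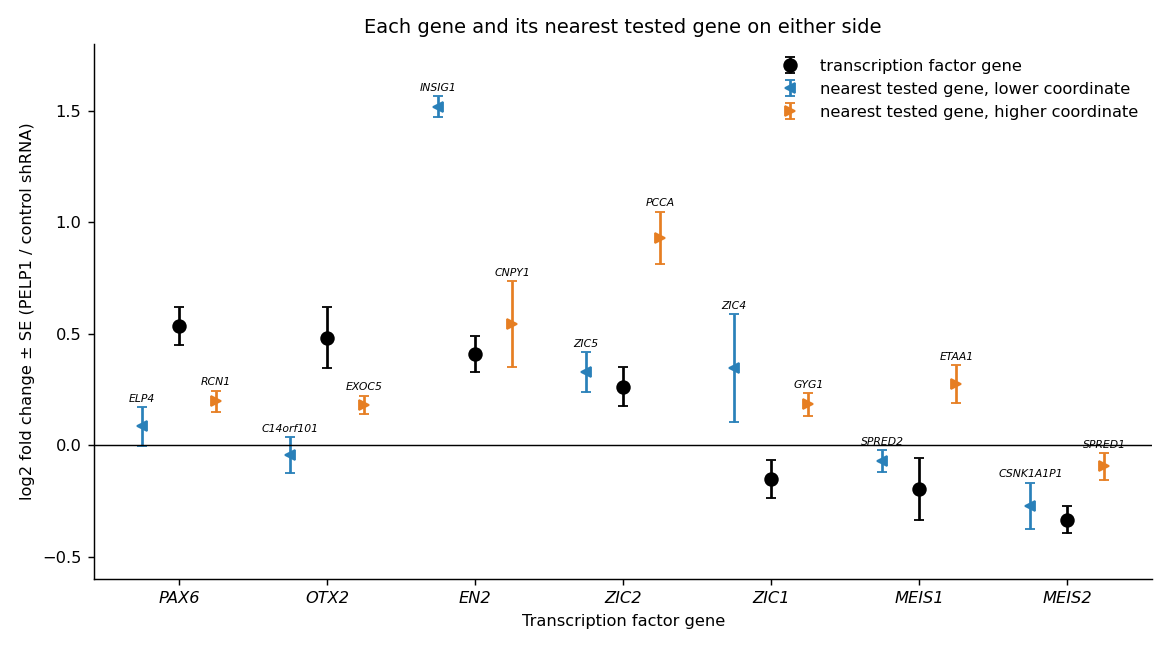
Log2 fold change ± SE (y axis) of the 7 tested transcription factor genes (circles) and of the nearest tested gene at lower (left triangles) and higher (right triangles) hg19 coordinates. The neighbours of PAX6, EN2 and ZIC2 all lay above 0, and those of ZIC1 lay on the other side of 0 from it.

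Genes with the pattern closest to a member over the 4 libraries were found by the Euclidean distance of centred log2(CPM + 0.5) values among 13615 genes of at least 1 CPM. For PAX6 these were EEFSEC, a selenocysteine elongation factor gene (distance 0.0202), HOXD9 (0.0202) and the histone methyltransferase homologue gene SETDB2 (0.0211). For MEIS2 they were the stress-induced NKG2D ligand gene MICB (0.0169), DIP2C (0.0187) and SYTL2 (0.0203). With 4 libraries in 2 groups, a short distance means little more than a similar fold change.

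Among 24 close paralogues of the members, 14 were tested, of which 5 rose, 3 fell and 6 missed the threshold (median log2 fold change 0.17). The share called was 57.1%, against 58.1% of all genes tested. In later lists it was 65% for dimer partners and corepressors, 73.3% for other granule regulators and 71.4% for granule neuron differentiation. It was 66.7% for subgroup markers, 63.6% for the hedgehog pathway and 55.6% for HOX genes. For the Purkinje and GABA lineage it was 75%, for glia 57.1% and for mesenchymal markers 100%. Several paired-box genes were among the paralogues. PAX5, a B-cell and midbrain-hindbrain factor, rose from 46 and 84 counts to 261 and 214 (3.11-fold, FDR = 2.22e-13), and PAX2 from 64 and 56 to 135 and 136 (1.92-fold, FDR = 6.72e-06). PAX1, a factor of the sclerotome, fell to 25.1% of control, from 4.63 ± 0.43 to 1.16 ± 0.10 CPM (SD, n = 2), and PAX7 to 47.2%. PAX9, at a higher level, fell from 41.3 ± 2.86 to 21.3 ± 0.95 CPM (SD, n = 2; FDR = 2.16e-18). OTX1 rose 2.25-fold from 19 and 18 counts to 49 and 49 (FDR = 0.000605). PAX3, close in level to PAX6 by counts, did not pass (−0.12 ± 0.09, SE, FDR = 0.286).

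The proteins that pair with the members were all transcribed. Of 20 genes of dimer partners and corepressors, all 20 were tested, 8 rose (5 in DESeq2), 5 fell and 7 missed the threshold (median −0.03). Among partners of MEIS proteins, PBX2 rose 1.27-fold (FDR = 1.81e-07) and PBX4 1.78-fold from about 1 CPM, a call lost in DESeq2 (adjusted p = 0.138) and without control replicate 2 (adjusted p = 0.139). PBX3 did not pass (−0.04 ± 0.05, SE, FDR = 0.564), and its sign turned with other scalings. The E proteins, partners of ATOH1 and NEUROD1, did not rise. TCF4 fell by 0.50 ± 0.06 (SE) and TCF12 by 0.23 ± 0.04 (SE) on the log2 scale, while TCF3, at 224.6 ± 12.9 and 222.9 ± 4.69 CPM (SD, n = 2), did not pass (−0.01 ± 0.04, SE, FDR = 0.824). Among the ID genes, inhibitors of E proteins, ID3 fell to 67.5% of control, ID4 rose 1.46-fold (FDR = 0.000797), and ID1 and ID2 did not pass (FDR = 0.137 and 0.597). TLE2, a Groucho corepressor of the kind that engrailed proteins recruit, rose 4.36-fold from 29 and 23 counts to 143 and 125 (FDR = 3.34e-13). TLE4, of the same family, fell from 44.9 ± 1.18 to 31.1 ± 0.98 CPM (SD, n = 2; FDR = 1.71e-10). TLE1 and TLE3 were called higher (0.18 ± 0.08 and 0.13 ± 0.05, SE), calls lost in DESeq2 (adjusted p = 0.207 and 0.0633), without control replicate 1 (adjusted p = 0.0506 and 0.202) and without either PELP1 shRNA library, and for TLE1 also without control replicate 2 (adjusted p = 0.195) and with the replicate block (adjusted p = 0.0634). The Groucho-related gene AES did not pass (−0.02 ± 0.04, SE, FDR = 0.64).

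Of 21 other regulators of the granule lineage, 15 were tested, of which 7 fell (4 in DESeq2), 4 rose (2 in DESeq2) and 4 missed the threshold (median −0.18). The oncogene MYCN rose 3.11-fold from 5 and 11 counts to 26 and 33 (FDR = 0.000545). Its log2 fold change of 1.64 was 1.25 without control replicate 1 and 2.23 without control replicate 2, and its adjusted p in DESeq2 was 0.0456. SOX11, a factor of immature neurons, fell from 70.1 ± 0.62 to 50.0 ± 2.11 CPM (SD, n = 2; 71.4% of control, FDR = 1.61e-11). NHLH2 was at 52.7% of control, a call lost in DESeq2 (adjusted p = 0.0671) and without PELP1 shRNA replicate 1 (adjusted p = 0.0946). MXD3 (0.35 ± 0.12, SE, FDR = 0.0073) and NFIA (0.30 ± 0.10, SE, FDR = 0.00626) rose, neither of them past the threshold in DESeq2 (adjusted p = 0.122 and 0.0972), and MXD3 was lost without PELP1 shRNA replicate 1 (adjusted p = 0.0573). ETV1 and LHX2 did not pass (FDR = 0.788 and 0.968). LMX1A, TBR1, INSM1, UNCX, FGF8 and WNT1 did not reach the count filter.

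Of 14 genes of granule neuron differentiation, 7 were tested. GABRA6, the granule-cell subunit of the GABA-A receptor, had 4 and 2 counts against 0 and 1, and RBFOX3, the gene of the NeuN antigen, 1 and 0 against 1 and 2. They belong to the 7 that did not reach the count filter. Among the 7 tested, the pan-neuronal tubulin gene TUBB3 stood at 154.7 ± 13.4 CPM and fell to 78.2 ± 0.13 (SD, n = 2; FDR = 1.35e-25). RELN, the gene of reelin, fell to 55.8% of control, while the synaptic vesicle genes SLC17A7 and SYP rose 3.43-fold from 1.12 CPM and 1.78-fold from 4.69 CPM. In all 2 rose, 3 fell and 2, CALB2 and MAP2, did not pass.

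Marker genes of the medulloblastoma subgroups moved in both directions. Of 5 SHH markers, ATOH1 was near 0, PDLIM3 rose 1.65-fold (FDR = 2.29e-10) and EYA1 1.33-fold (FDR = 0.00318). The EYA1 call was lost without PELP1 shRNA replicate 2 (0.182, adjusted p = 0.284) and in DESeq2 (adjusted p = 0.0832). HHIP, a hedgehog antagonist, stood at 20.4 ± 0.89 CPM and fell to 3.34 ± 0.62 (SD, n = 2; FDR = 9.62e-29). SFRP1 did not pass (−0.05 ± 0.04, SE, FDR = 0.274). The 5 SHH markers summed to 189.1 to 189.9 CPM in the control libraries and 172.6 to 183.3 CPM in the PELP1 shRNA libraries. Most of this was SFRP1, at 148.2 ± 1.63 and 142.8 ± 4.92 CPM (SD, n = 2), so the sum does not show the changes of HHIP and PDLIM3. Those of Group 3 summed to 7.76 to 10.4 CPM over the 4 libraries. Those of Group 4 summed to 27.03 and 28.79 CPM against 13.2 and 13.7 CPM, and of 5 tested 3 fell and 0 rose. Most of that sum was RBM24, an RNA-binding protein gene, which fell from 425 and 522 counts to 206 and 237 (39.9% of control, FDR = 2e-17). The WNT markers summed to 833.8 and 859.6 CPM against 478.2 and 460.9 CPM, nearly all of it from the matrix gene TNC, which is also made by mesenchymal and glial cells. DKK2 rose 2.84-fold, UNC5D fell from 63 and 78 counts to 4 and 2, and MAB21L2 from 54 and 69 to 15 and 12. Over all 22 markers, 18 were tested, and 4 rose, 8 fell and 6 did not pass. The number that fell was 5 with library size alone, in DESeq2 and without PELP1 shRNA replicate 2, and GABRA5 (0.30 ± 0.15, SE, FDR = 0.0797) was called higher with library size alone (adjusted p = 0.0206) and upper-quartile factors (adjusted p = 0.0378).

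Of 11 genes of the hedgehog pathway, 5 fell, 2 rose (1 in DESeq2 and without control replicate 1 or either PELP1 shRNA library) and 4 missed the threshold, among these SMO and SUFU (FDR = 0.878 and 0.417). HHIP showed the largest change, a fall to 16.4% of control. GLI2, a transcription factor of the pathway, fell to 61.2% of control, PTCH1 to 70.2% and GAS1 to 57.7%, while GLI3 rose 1.27-fold. GLI1 was called higher, from 11 and 24 counts to 40 and 32 (0.80 ± 0.33, SE, FDR = 0.0332). That call was lost in DESeq2 (adjusted p = 0.271), without control replicate 1 (0.415, adjusted p = 0.402) and without PELP1 shRNA replicate 1 (adjusted p = 0.171) or 2 (adjusted p = 0.0606), and without control replicate 2 the value was 1.40. Of 39 HOX genes, some of them partners of MEIS and PBX proteins, 36 were tested, of which 11 rose, 9 fell (4 in DESeq2) and 16 missed the threshold. With library size alone 18 rose and 5 fell. HOXC11 rose 2.21-fold and HOXB2 fell to 52.5% of control.

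**Figure D5:**
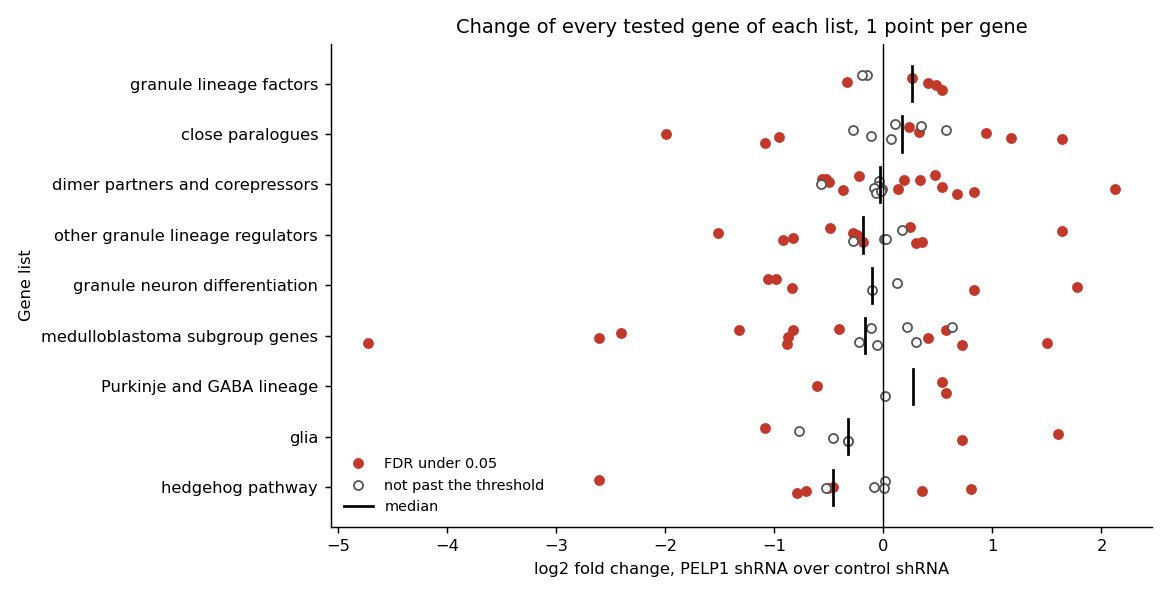
Log2 fold change of PELP1 shRNA over control shRNA (x axis) of every tested gene in 9 gene lists (y axis), 1 point per gene, filled where the FDR was under 0.05, with the list's median as a line. The granule lineage factors (7 tested) spanned −0.33 to 0.53. The subgroup markers (18 tested) reached −4.73 for UNC5D, which had 4 and 2 counts with the PELP1 shRNA.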

How the data were processed

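The deposited tables hold unnormalized counts for each gene symbol. Per the submitters' processing notes, the authors aligned reads to hg19 with TopHat2 2.0.8b and counted them with HTSeq. For the strand setting and the annotation, the entry is not given in the sources used here. The 5 rows that name no gene (38.8% to 40.5% of each file total, mostly reads aligned to more than 1 place) entered neither library sizes nor tests.

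The main test, over all genes, was edgeR 4.0.16 (quasi-likelihood F test, R 4.3.3, robust, TMM scaling, filterByExpr, shRNA group as the term, two-sided), with Benjamini-Hochberg adjustment over 14972 genes and a threshold of 0.05. The model fit was run on simulated counts of low variation, with changes planted in a small part of the genes. That setting does not probe changes as widespread as those called here, nor a larger biological variation. Each library counted as a sample. Replicates differed by more than counting noise (chi-square per degree of freedom 2.47 and 2.37), which does not show whether they came from separate cultures. Alternatives were upper-quartile factors, library size alone, DESeq2 1.42.0, other filters, a replicate block, each library left out, and an assumed biological variation of 10% or 20%. Coordinates and lengths came from GENCODE lifted to GRCh37 (hg19), which matched 21312 of 23228 gene rows.

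The members and gene lists were chosen with earlier results of these data known. Besides all members and PELP1, up to 4 genes per list were named, those with the largest change past the threshold whose groups did not overlap and whose mean reached 1 CPM, and up to 2 that did not pass with the highest level. MYCN, PAX9, ID1, ID2, ID4, TLE1, TLE3, TLE4, RBM24, GLI1, TWIST1, COL1A1, FABP7, EN1, ZIC4, ZIC5, MEIS3, PAX2, PBX2, PBX3, TCF4, TCF12, TNC, PDLIM3, EYA1, GLI3, genomic neighbours and genes at or near 0 were named after their values were seen. Results of a few genes that the lists hold are not reported here.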

Additional observations from a re-analysis of the deposited data

How the results depend on the processing

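Over the alternatives, 79 of 91 values of the 7 tested members kept their direction and their side of the threshold, 11 lost the call, 1 gained it and 0 changed sign. Calls were the same under all other scalings and filters of edgeR. DESeq2 was run without the count filter and gave a p to 19096 genes and 10 members, against 14972 and 7 in the main test. It called 3 members, 2 of them higher, with ZIC2 and OTX2 lost, and 6352 of all genes (2974 higher, 3378 lower). With each library left out, 4 to 6 members were called, 3 to 4 higher and 1 to 2 lower, 0 to 0 passed the 1.5-fold test, and 7420 to 7757 of all genes were called (3612 to 3726 higher, 3804 to 4031 lower). With an assumed biological variation of 10%, 4363 genes were called (2187 higher, 2176 lower), among them 3 members, with 0 lower. With 20%, 1325 genes were called (685 higher, 640 lower) and 0 members, 0 higher and 0 lower.

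The same replicate numbers share no stated origin. Deviations of same-numbered libraries from their group means correlated at −0.158 over 11325 genes. With the replicate block, 8161 genes and 5 members were called, 4 higher and 1 lower, and with a crossed replicate block, chosen after seeing the data, 9284 genes and the same number of members. GFAP did not pass in the main test (FDR = 0.82) but was called lower with either block (adjusted p = 0.000946 and 0.000566). The crossed block set control replicate 1 (37.2 CPM) beside PELP1 shRNA replicate 2 (10.4 CPM). It set control replicate 2 (11.8 CPM) beside PELP1 shRNA replicate 1 (27.8 CPM). These pairs went opposite ways, so the crossed call shows no common fall of GFAP.

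Of 1129 values of the other named genes, 999 kept direction and side, 95 lost a call, 8 gained one and 27 changed sign, all in genes that had not passed. With upper-quartile factors AES stood at 0.0313, TCF3 at 0.0417 and PBX3 at 0.0146. With library size alone AES stood at 0.0683, TCF3 at 0.0787, PBX3 at 0.0515, SFRP1 at 0.0353, SUFU at 0.00106, ID1 at 0.00534, ID2 at 0.0257 and HOXA7 at 0.00196. With a library left out, ranges were −0.0511 to 0.00733 for AES, −0.0696 to 0.0491 for TCF3, −0.19 to 0.0103 for SUFU, −0.0839 to 0.135 for ETV1, −0.166 to 0.203 for FOXP2, −1.22 to 0.707 for GFAP, −0.0211 to 0.0328 for LHX2, −0.236 to 0.0208 for MAP2, −0.183 to 0.0713 for ID2 and −0.0587 to 0.0751 for SMO. Without control replicate 1, GFAP was called higher (adjusted p = 6.96e-09). Of 20 list counts, 19 moved by over 1.5 times with an assumed variation of 20%, 10 with 10% and 8 in DESeq2. The cause was not tested. Depth limits ATOH1, BARHL1 and NEUROD1, whose counts of 0 to 6 per library allow no statement on a change.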

Other observations

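Markers of other cell types were present at differing levels in these libraries. Of 10 markers of the Purkinje and GABA lineage, 9 had a row and 4 were tested. LHX1, a LIM homeobox gene of Purkinje cells and of kidney, stood at 27.5 ± 0.23 CPM and fell to 18.1 ± 0.94 (SD, n = 2; FDR = 1.46e-09). CA8, a Purkinje cell gene, rose 1.49-fold (FDR = 1.97e-05). OLIG2 stood at 2.45 and 3.55 CPM, a call (FDR = 0.0123) lost in DESeq2 (adjusted p = 0.178), when control replicate 2 was left out (adjusted p = 0.156) and when PELP1 shRNA replicate 1 was (adjusted p = 0.0617). FOXP2 did not pass (FDR = 0.954). PTF1A had at most 2 counts in any library.

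The 6 mesenchymal markers summed to 9068 and 9466 CPM in the control libraries and 7977 and 7702 CPM with the PELP1 shRNA, nearly all of it VIM (5546 CPM in control) and COL1A1 (3282 CPM). THY1 stood at 386.5 CPM, and PDGFRB, TWIST1 and COL3A1 at 14.2, 21.7 and 16.8 CPM. VIM fell to 70.2% of control, THY1 to 51.1%, PDGFRB to 54.8%, TWIST1 to 73.6% and COL3A1 to 13.9%. Of the 6, 5 fell and 1, COL1A1, rose (0.18 ± 0.04, SE).

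Of 9 glial genes, 7 were tested. MBP, the gene of myelin basic protein, had 54 and 68 counts against 286 and 152 (FDR = 0.000266), and SLC1A3, a glutamate transporter of Bergmann glia, rose 1.65-fold. SOX10 had 2 or 3 counts in every library. SOX2 was called lower (FDR = 0.0176), a call lost with library size alone (adjusted p = 0.0867), in DESeq2 (adjusted p = 0.181) and with control replicate 1 left out (adjusted p = 0.0883) and likewise PELP1 shRNA replicate 2 (adjusted p = 0.129). FABP7 was also called lower (FDR = 0.0452), with adjusted p of 0.0543 under upper-quartile factors, 0.0517 under library size alone and 0.187 from DESeq2. It stood at −0.718 without PELP1 shRNA replicate 2 (adjusted p = 0.226) and at −0.0237 without control replicate 1 (adjusted p = 0.976).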
